A study of Mus musculus with 6 samples.

Results

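The ligands and receptors of TGF-β and PDGF were compared between control and lipophagy-induced livers of a mouse model of non-alcoholic steatohepatitis. The 9 genes, Tgfb1, Tgfb2, Tgfb3, Tgfbr1, Tgfbr2, Pdgfa, Pdgfb, Pdgfra and Pdgfrb, were found by their symbols among the 24346 genes of the deposited expression table, and all 9 had a row. Liver RNA of 3 control and 3 lipophagy mice was measured by RNA sequencing and given as FPKM, fragments scaled to the length of the transcript and to the number of mapped fragments. Male C57BL/6J mice that were 8 weeks old were fed CDAHFD, a high-fat diet of defined amino acids that lacks choline, for 6 weeks. They then received 1 injection of an AAV8 vector and returned to normal chow, and the livers were analysed 2 weeks later. The thyroxine-binding globulin promoter of the vector is active in hepatocytes, so the other liver cells were not its target. In the lipophagy group the vector encoded LDTS-eLIR, in which the lipid droplet-targeting sequence of perilipin 1 is joined to an engineered LC3-interacting region that recruits autophagosomes. In the control group it encoded LDTS-LIR mut, the same targeting sequence with a mutant region. Both groups therefore carried the droplet-targeting part, which had a lipogenic effect of its own according to the study. None of the 6 livers was without a vector.

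TGF-β is the best known fibrogenic cytokine of the liver. Its ligands are secreted in a latent complex and, once released, bind the type II receptor encoded by Tgfbr2, which recruits and phosphorylates the type I receptor encoded by Tgfbr1, and the signal is passed on by SMAD proteins to genes of the extracellular matrix. PDGF chains form dimers that activate the receptor tyrosine kinases PDGFR-α and PDGFR-β and are strong mitogens of hepatic stellate cells, the vitamin A-storing pericytes of the sinusoid that become matrix-producing myofibroblasts in injured liver. Macrophages, platelets, endothelial cells and bile duct cells are known sources of these ligands, while hepatic stellate cells and fibroblasts carry the PDGF receptors.

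The mean of all 9 genes was lower in lipophagy livers, and the livers of the 2 groups did not overlap for 7 of them, namely all 5 ligands and both PDGF receptors. Of the 9 genes, 7 passed the filter on low values, and 5 of those did not overlap. Of all genes tested, 10.8% were lower without overlap and 15.4% higher. These counts depended on the scaling. Tgfbr1 and Tgfbr2 overlapped. The margin was narrow for Tgfb2, Tgfb3, Pdgfa and Pdgfra and clear for Tgfb1, Pdgfb and Pdgfrb. Mean levels in lipophagy livers were between 0.551 and 0.950 of those in control livers. After adjustment for the number of genes tested, none of these differences passed the threshold.

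For orientation, the bases before a RefSeq transcription start are shown for 3 of the genes, the ligands Tgfb1 and Pdgfa, whose livers did not overlap, and the receptor Tgfbr2, whose livers did. They were chosen after the values were seen. RefSeq promoters (GRCm38.p6) were found for 6 of the 9 genes, by symbol. Each sequence holds the 250 bases before a start, 5′ to 3′ on the strand of the gene, and capitals mark the GC box GGGCGG on either strand, a motif bound by SP and KLF family factors. The sequence of Tgfb1 is chr7:25686752-25687001 on the plus strand, that of Pdgfa is chr5:138994945-138995194 on the minus strand, and that of Tgfbr2 is chr9:116175364-116175613 on the minus strand.
Tgfb1: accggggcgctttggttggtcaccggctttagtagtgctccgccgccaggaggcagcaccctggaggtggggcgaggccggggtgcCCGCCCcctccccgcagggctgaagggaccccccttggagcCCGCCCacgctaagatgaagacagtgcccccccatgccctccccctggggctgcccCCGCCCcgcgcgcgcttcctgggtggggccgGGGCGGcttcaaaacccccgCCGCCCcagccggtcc
Pdgfa: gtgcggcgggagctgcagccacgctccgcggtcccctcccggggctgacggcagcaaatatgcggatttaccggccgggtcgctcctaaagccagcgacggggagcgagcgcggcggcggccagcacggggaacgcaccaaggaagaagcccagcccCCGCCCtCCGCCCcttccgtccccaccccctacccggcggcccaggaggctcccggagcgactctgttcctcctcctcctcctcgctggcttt
Tgfbr2: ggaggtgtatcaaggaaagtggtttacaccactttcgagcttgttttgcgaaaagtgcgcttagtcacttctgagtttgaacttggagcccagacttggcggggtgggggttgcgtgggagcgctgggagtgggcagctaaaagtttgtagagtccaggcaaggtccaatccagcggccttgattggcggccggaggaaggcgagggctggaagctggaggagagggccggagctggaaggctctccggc
The window of Tgfb1 held 5 GC boxes with a GC content of 75.2%, that of Pdgfa held 2 with 72.4%, and that of Tgfbr2 held 0 with 58.4%. Pdgfa has another RefSeq start, at whose window 1 GC box was found. Both Pdgfa windows lie within the span of the gene in GENCODE, chr5:138976014-138997370, so they precede a RefSeq start but not the outermost end of the gene. Of the other genes, Tgfbr1 held 2 GC boxes at its first start and 0 at its other start, and Tgfb2 and Pdgfra held 0. At least 1 GC box was present in 32.7% of the 32851 promoter windows of this length. The TATA box TATAAA, found on either strand in 12.4% of windows, was present in Tgfb2 only. The AP-1 site TGANTCA, where N is any base, and the SMAD-binding element GTCTAGAC were found in none of the 8 windows of these genes, and in 6.75% and 0.167% of all windows. The 4 motifs do not overlap each other in these windows, and a match is a stretch of letters and not a measured binding site.

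The number of fragments, estimated from the smallest steps of the FPKM values, was 23.8 to 34.3 M in control and 23.0 to 24.8 M in lipophagy livers. Between 15342 and 15988 genes were above 0 in a liver, and the rank correlation between any 2 livers was 0.979 to 0.982. The FPKM values summed to 622696 to 681138 in control livers and to 709993 to 782392 in lipophagy livers. Of the 11493 genes whose mean reached 0.5 FPKM, 3 had an adjusted p below 0.05 (limma, Benjamini-Hochberg), which is 0.0261% of the tested genes, and all 3 were lower. The median log2 change of all tested genes was 0.02, and 45.5% of them were lower. The livers express their labelled tissue, with all 18 hepatocyte markers above the filter. In bulk liver, fewer cells of a type and less RNA per cell cannot be told apart, and this holds for each value below.

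Among the ligands, Tgfb1, the main TGF-β isoform of injured liver, was at 3.81, 3.85 and 4.05 FPKM in control livers 1, 2 and 3 and at 3.25, 2.81 and 2.66 FPKM in lipophagy livers 1, 2 and 3. Each lipophagy liver lay below each control liver, and the gap of 0.556 FPKM between the nearest livers was wider than the control SD. The mean was 3.90 ± 0.130 FPKM in control and 2.91 ± 0.308 FPKM in lipophagy livers (SD, n = 3), a ratio of 0.744. On the log2(FPKM + 1) scale, on which all changes are given, the difference was -0.33 (SE 0.085, 95% interval -0.53 to -0.13). The adjusted p was 0.144 in limma. The values correspond to about 129 to 278 fragments per liver. Tgfb1 spans chr7:25687002-25705077 (GRCm38, plus strand), and its longest transcript has 7 exons.

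**Figure D1:**
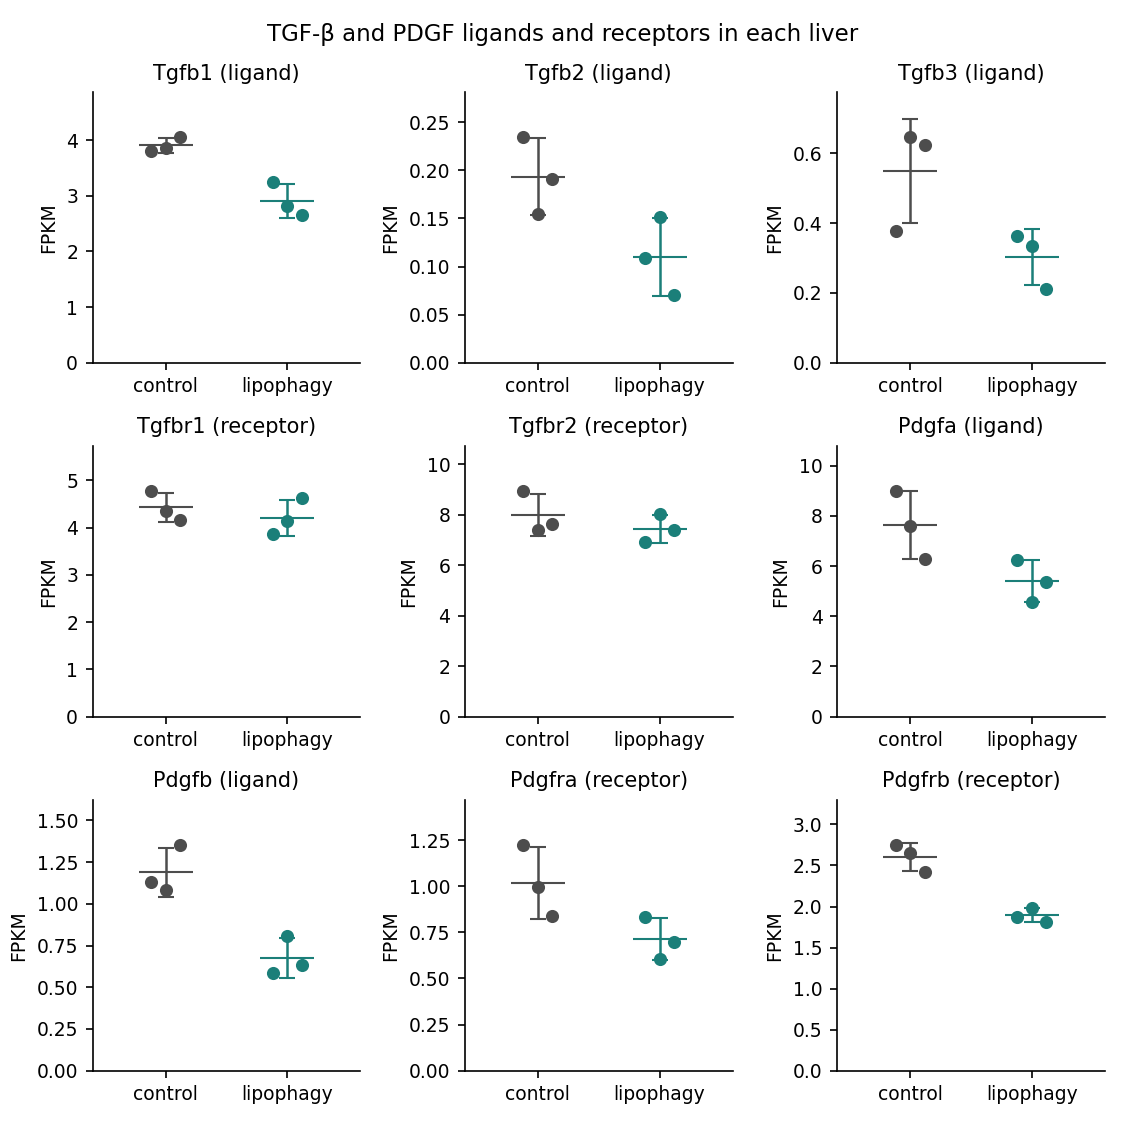
FPKM of each gene (y axis, linear from 0, own scale per panel) in the 3 control and 3 lipophagy livers (points), with the mean and SD of each group (line and bars). The groups are apart for Tgfb1, Pdgfb and Pdgfrb, nearly touch for Tgfb2, Tgfb3, Pdgfa and Pdgfra, and overlap for Tgfbr1 and Tgfbr2.

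The other TGF-β ligands were far lower than Tgfb1, and their means were under the filter of 0.5 FPKM. Tgfb3 was at 0.379, 0.647 and 0.623 FPKM in control livers and at 0.362, 0.335 and 0.211 FPKM in lipophagy livers. Control livers 2 and 3 stood well above the lipophagy livers, while control liver 1 was just above lipophagy liver 1. The mean was 0.549 ± 0.148 FPKM in control and 0.303 ± 0.0808 FPKM in lipophagy livers (SD, n = 3), a ratio of 0.551. In the fit with no filter the log2 difference was -0.25 (SE 0.082, adjusted p = 0.255 in limma). Tgfb3 lies at chr12:86056745-86079041 on the minus strand, where it overlaps Ttll5 on the plus strand. The library kit keeps the strand, but whether the counting used it is not given in the sources used here, so reads of the 2 genes may not be separate.

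Tgfb2, the third isoform, was the lowest of all 9 genes. It was at 0.235, 0.155 and 0.191 FPKM in control livers and at 0.109, 0.151 and 0.0699 FPKM in lipophagy livers. The lowest control liver exceeded the highest lipophagy liver by only 0.00379 FPKM. The log2 difference in the fit with no filter was -0.10 (SE 0.037, adjusted p = 0.273 in limma), and it was -0.07 with quantile normalization. These levels rest on only about 8.58 to 32.4 fragments per liver, and those of Tgfb3 on about 16.8 to 68.5. Tgfb2 spans chr1:186622792-186705989 on the minus strand.

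Pdgfa, which encodes the PDGF-A chain, was the most abundant ligand. It was at 8.99, 7.60 and 6.28 FPKM in control livers and at 6.26, 4.58 and 5.37 FPKM in lipophagy livers. The control livers were spread widely, and control liver 3 was only 0.0226 FPKM above lipophagy liver 1. The mean was 7.62 ± 1.35 FPKM in control and 5.40 ± 0.840 FPKM in lipophagy livers (SD, n = 3), a ratio of 0.709. The log2 difference of -0.43 (SE 0.14, 95% interval -0.75 to -0.11) had adjusted p = 0.186 in limma. It was the largest of the 9 genes on this scale, which understates the genes of low level. By the ratio of the means Tgfb3, Pdgfb, Tgfb2 and, by a little, Pdgfra were further from 1, and with a pseudocount of 0.1 the log2 differences of -0.68 for Tgfb3, -0.74 for Pdgfb and -0.49 for Tgfb2 exceeded the -0.485 of Pdgfa. Pdgfa spans chr5:138976014-138997370 on the minus strand, with 7 annotated transcripts.

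Pdgfb, which encodes the PDGF-B chain, the ligand of both PDGF receptors, was at 1.13, 1.08 and 1.35 FPKM in control livers. In lipophagy livers it was at 0.585, 0.809 and 0.633 FPKM. No lipophagy liver reached a control liver, and the gap between the nearest was 0.271 FPKM. The mean was 1.19 ± 0.144 FPKM in control and 0.676 ± 0.118 FPKM in lipophagy livers (SD, n = 3), a ratio of 0.569. The log2 difference was -0.38 (SE 0.089, 95% interval -0.59 to -0.18), with the lowest adjusted p of the 9 genes, 0.134 in limma. The values correspond to about 38.5 to 128 fragments per liver. The study had picked Pdgfb from these livers for display, so its direction is not independent evidence. Pdgfb spans chr15:79995874-80014977 on the minus strand, and the small RNA gene Mir7213 lies within it on the same strand.

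Among the receptors, Pdgfrb, which encodes PDGFR-β of stellate cells and other pericytes, was at 2.75, 2.65 and 2.42 FPKM in control livers and at 1.88, 1.99 and 1.82 FPKM in lipophagy livers. The groups were 0.431 FPKM apart, and the lipophagy livers were closely alike. The mean was 2.61 ± 0.170 FPKM in control and 1.89 ± 0.0874 FPKM in lipophagy livers (SD, n = 3), a ratio of 0.726. The log2 difference was -0.32 (SE 0.078, 95% interval -0.50 to -0.14), with adjusted p = 0.135 in limma. About 234 to 435 fragments per liver stood behind the values. Pdgfrb spans chr18:61045150-61085061 on the plus strand.

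Pdgfra, which encodes PDGFR-α, was at 1.22, 0.995 and 0.836 FPKM in control livers and at 0.832, 0.607 and 0.698 FPKM in lipophagy livers. Control liver 3 and lipophagy liver 1 were nearly equal, 0.00409 FPKM apart. The log2 difference was -0.23 (SE 0.097, 95% interval -0.46 to -0.010), with adjusted p = 0.246 in limma, and it was -0.15 with quantile normalization (adjusted p = 0.503 in limma). The mean in lipophagy livers was 0.700 of that in control livers. Pdgfra spans chr5:75152292-75198215 on the plus strand, and the small RNA gene Mir7025 lies within it on the same strand.

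Both TGF-β receptors overlapped between the groups. Tgfbr2 was at 8.94, 7.38 and 7.63 FPKM in control livers and at 6.91, 8.02 and 7.41 FPKM in lipophagy livers. Lipophagy liver 2 was above 2 of the 3 control livers. The log2 difference was -0.09 (SE 0.096, 95% interval -0.31 to 0.13, adjusted p = 0.632 in limma). Tgfbr1 was at 4.77, 4.35 and 4.16 FPKM in control livers and at 3.87, 4.13 and 4.62 FPKM in lipophagy livers. Here lipophagy liver 3 was above 2 of the 3 control livers, and the log2 difference was -0.06 (SE 0.089, 95% interval -0.27 to 0.14, adjusted p = 0.724 in limma). The intervals of both receptors reach 0, and they also hold differences as large as -0.27 and -0.31, so equal levels were not shown. Tgfbr1 rests on about 513 to 797 fragments and Tgfbr2 on about 1299 to 2070 fragments per liver, more than each ligand. Tgfbr1 spans chr4:47353222-47414931 on the plus strand and Tgfbr2 chr9:116084293-116175360 on the minus strand.

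**Figure D2:**
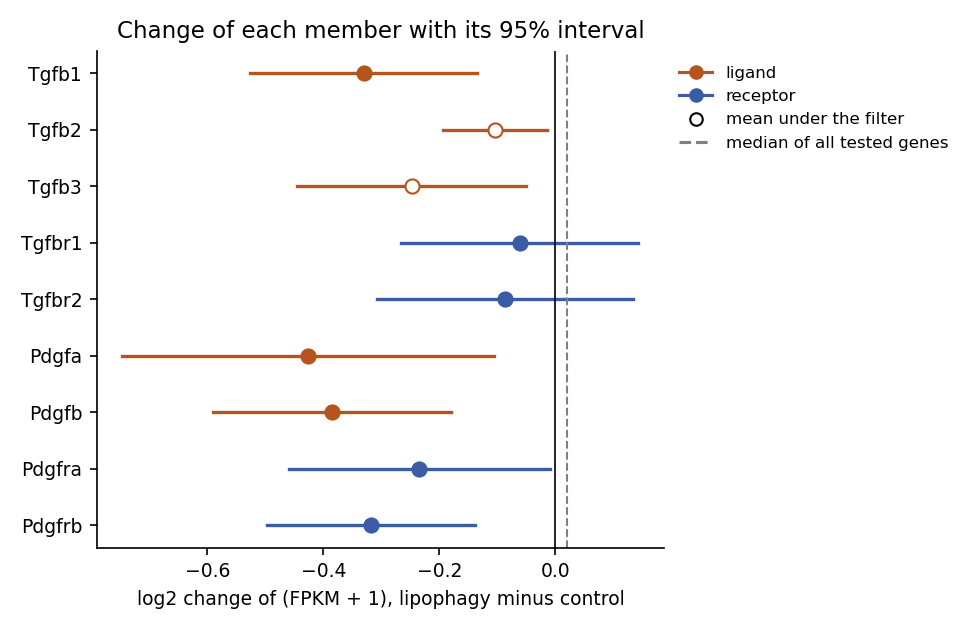
Log2 change of (FPKM + 1), lipophagy minus control (x axis), of each gene with its 95% interval from limma. Ligands and receptors differ in colour, open circles are the 2 genes under the filter, and the dashed line is the median of all tested genes, 0.02. The intervals of Tgfbr1 and Tgfbr2 cross 0, and those of the other 7 genes lie below 0 before any adjustment for the number of genes.

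Of the 9 genes, 7 passed the filter on low values. None of the 7 had an adjusted p below 0.05 in limma, against 0.0261% of all tested genes, and their adjusted p ranged from 0.134 to 0.724. At an unadjusted p below 0.05, 5 of the 7 were lower, against 7.97% of all tested genes that were lower and 11.5% that were higher at this threshold. The same 5 genes did not overlap between the groups. Of all tested genes, 10.8% were lower without overlap and 15.4% were higher without overlap. The median log2 change was -0.32 over the 7 genes, -0.38 over the 3 tested ligands and -0.16 over the 4 receptors. Counted from the lowest log2 change of the 11493 genes, Pdgfa stood at rank 242, Pdgfb at 300, Tgfb1 at 471, Pdgfrb at 527 and Pdgfra at 1018. Tgfbr2 stood at 3197 and Tgfbr1 at 3768. The genes were chosen with earlier results of these livers known, so these counts are a description and not a test of the family.

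The lack of overlap depended on the scaling where the margin was narrow. With each liver scaled to the same median, Pdgfa and Pdgfra overlapped as well and 5 of the 9 genes did not. Of the 7 tested genes 3 did not, where 10.7% of the 11491 tested symbols were lower without overlap and 15.6% higher. With quantile normalization Tgfb2, Tgfb3 and Pdgfra overlapped and 4 of the 9 did not, all of them tested genes, where 10.3% of all symbols were lower without overlap and 10.2% higher. With each liver scaled to the same FPKM total, Tgfbr2 no longer overlapped and 8 of the 9 genes were apart. Of the 7 tested genes 6 were apart, but 27.2% of all symbols were then lower without overlap and 2.74% higher. Under each of these scalings Tgfb1, Pdgfb and Pdgfrb did not overlap, and the mean log2 change of each of the 9 genes was below 0. Scaling to the FPKM total shifted the median of all tested genes from 0.02 to -0.12, and the changes of Tgfbr1 and Tgfbr2 became -0.21 and -0.25, which moved them by about as much as the median of all tested genes.

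In the order of their levels in control livers, which FPKM gives per length of transcript, the genes were Tgfbr2 at 7.98, Pdgfa at 7.62, Tgfbr1 at 4.43, Tgfb1 at 3.90, Pdgfrb at 2.61, Pdgfb at 1.19, Pdgfra at 1.02, Tgfb3 at 0.549 and Tgfb2 at 0.194 FPKM. Neighbours in this order did not overlap in control livers, except Tgfbr2 with Pdgfa and Pdgfb with Pdgfra. In lipophagy livers the order was kept except that Pdgfra, at 0.712 FPKM, was above Pdgfb, at 0.676 FPKM, and these overlapped. Tgfbr2 with 7.45 FPKM was then clear of Pdgfa with 5.40 FPKM, and Pdgfa overlapped Tgfbr1 with 4.21 FPKM. Tgfbr2 was above Tgfbr1 and Pdgfrb above Pdgfra in both groups.

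Whether the genes differed in their change was asked by ratios of log2(FPKM + 1) between pairs within each liver. The ratio of Pdgfb to Pdgfa was at -1.97 ± 0.306 in control and -1.93 ± 0.287 in lipophagy livers (SD, n = 3), a difference of 0.04. The difference was -0.08 for Pdgfrb to Pdgfra, -0.03 for Tgfbr2 to Tgfbr1 and 0.08 for Tgfb3 to Tgfb1. All 4 ratios overlapped between the groups, with p between 0.3 and 0.8 and an adjusted p of 0.8 by exact permutation (two-sided). With 3 livers in each group this test cannot give a p below 0.1, so the pairs were not shown to be alike in their differences.

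Another 4 ratios, of a ligand to a receptor, were chosen after seeing the data. The ratio of Tgfb1 to Tgfbr1 was at -0.26, -0.14 and -0.03 in control livers and at -0.19, -0.43 and -0.62 in lipophagy livers. Lipophagy liver 1 lay among the control livers, and the other two lay below them (difference -0.27, p = 0.2 in a two-sided exact permutation test). For Tgfb1 to Tgfbr2 the difference was -0.24 (p = 0.2, exact permutation test). Pdgfa to Pdgfra was the only one of the 8 ratios without overlap, at 2.17, 2.11 and 1.988 in control and 1.987, 1.80 and 1.91 in lipophagy livers, and its difference was -0.19 (p = 0.1, exact permutation test, the smallest possible). With a pseudocount of 0.1 this difference was -0.029 (p = 0.3, exact permutation test), and with scaling to the same median p was 0.2 (exact permutation test), so the lack of overlap was lost in both. The difference for Pdgfb to Pdgfrb was -0.07 (p = 0.7, exact permutation test). Adjusted over all 8 ratios, the lowest p was 0.533. Because p cannot fall below 0.1 here, this test could not decide whether the TGF-β ligand differed more than its receptors. Of Tgfb1, Tgfbr1 and Tgfbr2, only the receptors overlapped.

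**Figure D3:**
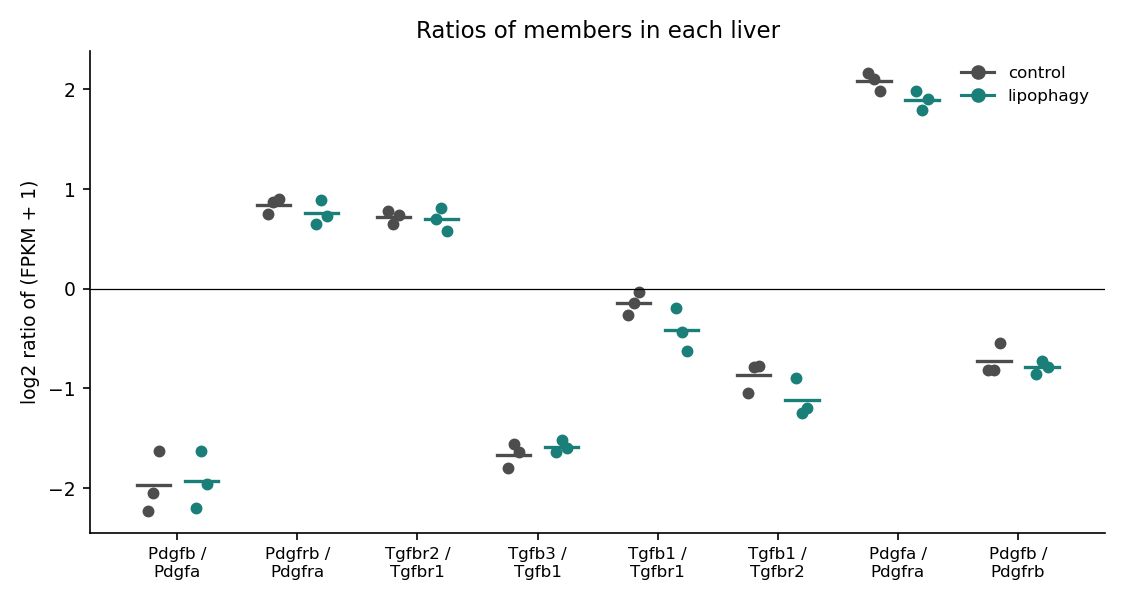
Log2 ratio of (FPKM + 1) between 2 genes (y axis) in each control and lipophagy liver (points), with the group means (lines). The first 4 ratios are within ligands or within receptors, the last 4 set a ligand against a receptor, and Pdgfa to Pdgfra is the ratio whose groups do not overlap.

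The genes around these ligands and receptors were described by lists of pathway genes. None of their tested genes had an adjusted p below 0.05 in limma, and the counts below are at an unadjusted p below 0.05, to be read against 7.97% lower and 11.5% higher of all tested genes. The range in brackets after the median of a list is that over 15 alternative settings, among them the scalings and each liver left out. Of 22 genes of TGF-β latency and activation, 16 were tested, with a median log2 change of -0.17 (-0.27 to -0.10), and 6 were lower and 2 higher. Mmp2, a gelatinase, had the lowest change in this list, with 3.67 ± 0.799 FPKM in control and 2.21 ± 0.424 FPKM in lipophagy livers (SD, n = 3, log2 change -0.53, adjusted p = 0.157 in limma). Furin, the convertase that cleaves TGF-β precursors, had the highest, with 30.96 ± 0.931 and 36.1 ± 2.09 FPKM (SD, n = 3, log2 change 0.21). The integrin subunit genes Itgav and Itgb5, whose products activate latent TGF-β, were at -0.14 and 0.02, and Itgb1 was at 0.09. Itgb3, Itgb6 and Itgb8 were under the filter, with means of 0.206, 0.059 and 0.022 FPKM in control and 0.283, 0.027 and 0 FPKM in lipophagy livers. The integrin genes were named after their values were seen. The list of co-receptors and decoys had 9 tested genes, a median of -0.14 (-0.28 to -0.11), 3 lower and 1 higher. Bgn, which encodes the matrix proteoglycan biglycan, was lowest at -0.41, and its 51.6 to 53.8 FPKM in lipophagy livers lay below the 68.8 to 72.6 FPKM of control livers. Vasn, which encodes vasorin, a protein that traps TGF-β, was highest at 0.31.

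Downstream of the TGF-β receptors, the 21 tested genes of SMADs and their regulators had a median of -0.03 (-0.16 to 0.01), lowest with scaling to the FPKM total, highest with quantile normalization and -0.091 without control liver 2, with 2 lower and 2 higher. Pmepa1, a TGF-β-induced inhibitor of SMAD signalling, was lowest at -0.24, and Strap, whose product binds the receptors with SMAD7, was highest at 0.20. The 22 tested target genes of TGF-β had a median of -0.22 (-0.35 to -0.20), with 10 lower and 1 higher, and 9 were lower without overlap against 10.8% of all tested genes. Col1a1, the α1 chain of type I collagen, was lowest, with 5.91, 6.15 and 6.98 FPKM in control and 2.63, 3.99 and 3.61 FPKM in lipophagy livers (log2 change -0.75, SE 0.13, adjusted p = 0.103 in limma). It is among the genes that the study displayed from these livers, as are Col1a2 and Acta2, so their directions are not independent evidence. Bhlhe40, a transcriptional repressor, was highest at 0.59, with 64.7 FPKM in lipophagy liver 3 and 24.4 and 32.8 FPKM in the other two lipophagy livers.

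Not all target genes were lower, and some of those with the opposite sign turned on 1 liver. These genes were named after their values were seen. Smad7, the inhibitory SMAD that TGF-β induces, was at 1.72, 1.56 and 1.67 FPKM in control livers and at 1.18, 1.19 and 3.12 FPKM in lipophagy livers. Ctgf, a matricellular protein gene, was at 1.85, 2.01 and 1.90 FPKM in control and at 1.77, 1.70 and 3.17 FPKM in lipophagy livers. In both genes lipophagy livers 1 and 2 lay below all control livers and lipophagy liver 3 above them. Nox4, which encodes an NADPH oxidase, was at 12.2, 10.9 and 10.8 FPKM in control and at 12.78, 12.8 and 15.4 FPKM in lipophagy livers, and was the target gene counted as higher (log2 change 0.25, adjusted p = 0.230 in limma). Lipophagy liver 3 had the lowest Tgfb1, Tgfb2 and Tgfb3 of all livers.

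Of the remaining PDGF family and its modulators, 13 genes were tested, with a median of -0.19 (-0.34 to -0.18), 6 lower and 1 higher. Plat, which encodes the tissue plasminogen activator that cleaves PDGF-CC, was lowest at -0.39, and its livers overlapped. Furin, which is in this list too, was highest. Pdgfc, the C chain gene, was named after its values were seen, with 1.68, 2.202 and 1.74 FPKM in control and 1.24, 1.53 and 0.966 FPKM in lipophagy livers (log2 change -0.36, adjusted p = 0.186 in limma). The 32 tested genes of PDGF receptor signalling proteins had a median RNA change of -0.01 (-0.16 to 0.02), near that of all tested genes, with 3 lower and 1 higher. Gab1, a docking protein, was lowest at -0.29 and Map2k2, the kinase MEK2, highest at 0.24. The related activins and BMPs with their receptors had 20 tested genes and a median of -0.12 (-0.21 to -0.04), which was -0.074 without control liver 1, with 3 lower and 1 higher. Fstl1, a follistatin-like secreted protein, was lowest at -0.47. Gdf15, a stress-induced cytokine of the TGF-β superfamily, was highest at 1.11, with 9.31, 17.5 and 7.75 FPKM in control and 27.7, 25.8 and 20.8 FPKM in lipophagy livers (adjusted p = 0.134 in limma). Of this list Bmpr1b, Nog and Grem1 were listed at 0 in all 6 livers.

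**Figure D4:**
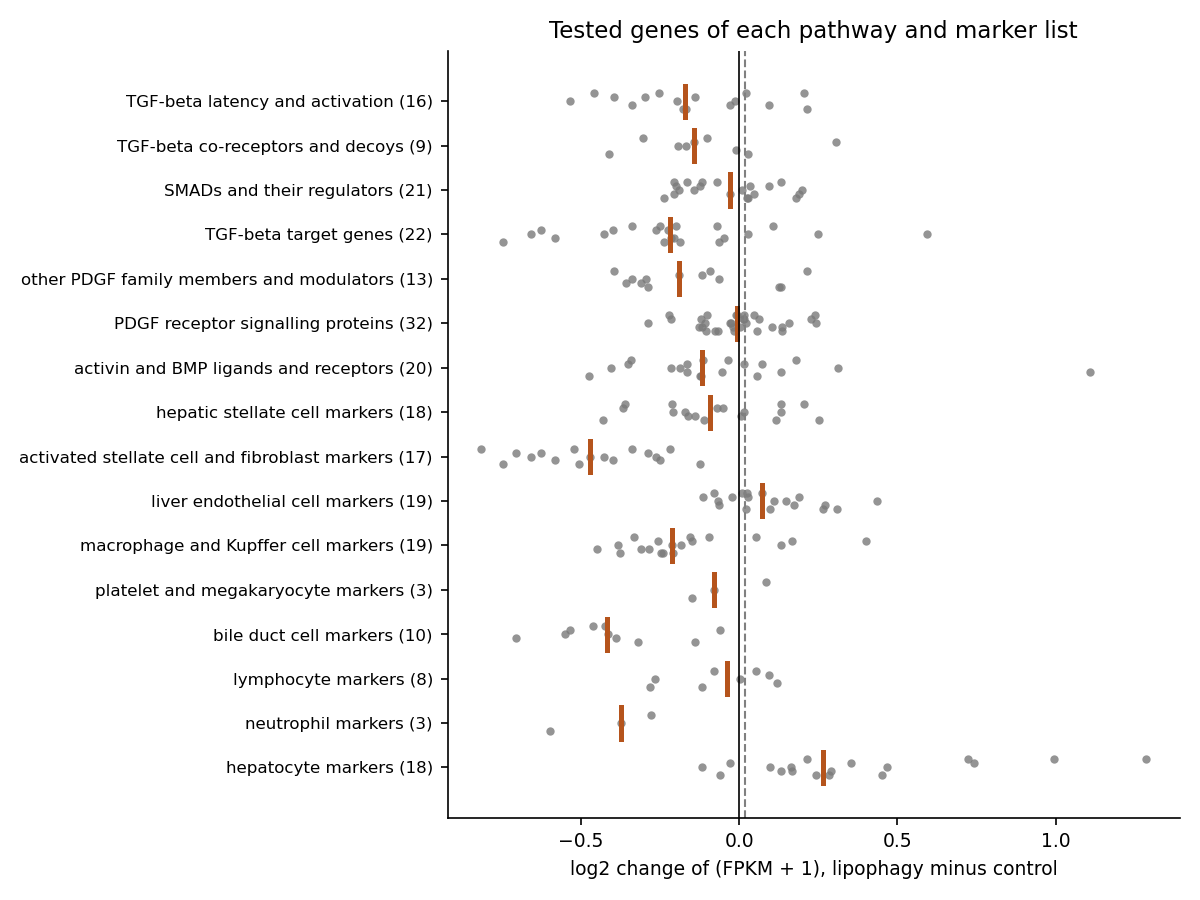
Log2 change of (FPKM + 1), lipophagy minus control (x axis), of each tested gene (grey points) in 16 lists of pathway genes and cell type markers, with the number of tested genes in brackets and the median of each list (orange bar). The dashed line is the median of all tested genes. The medians of the activated stellate cell, bile duct and neutrophil lists lie lowest, and that of hepatocyte markers highest.

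The markers of cells that make or receive these signals are given beside the 9 genes, and their part in the values of the 9 genes was not tested. The 18 tested hepatic stellate cell markers had a median of -0.09 (-0.21 to -0.02), and 3 were lower at an unadjusted p below 0.05. This median was -0.020 without lipophagy liver 2, -0.022 without control liver 1, -0.17 without control liver 3 and -0.19 without lipophagy liver 1. Their summed level was 196 to 229 FPKM in control and 165 to 227 FPKM in lipophagy livers, which overlapped. Cygb, which encodes the stellate cell globin cytoglobin, was lowest at -0.43 (adjusted p = 0.135 in limma) and Lrat, which makes the retinyl esters that stellate cells store, was highest at 0.25. All 17 tested markers of activated stellate cells and fibroblasts were lower, with a median of -0.47 (-0.61 to -0.37), and 12 of them at an unadjusted p below 0.05. Dpt, a dermatopontin gene of fibroblasts, was lowest at -0.82 with overlapping livers, and Fbln5 was closest to no change at -0.12. The summed level of this list was 225 to 351 FPKM in control and 145 to 269 FPKM in lipophagy livers. The activated list shares Acta2, Col1a1, Col1a2 and others with the target genes of TGF-β, so the lists are not separate evidence.

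For macrophages and Kupffer cells, 15 of 19 tested markers were lower, with a median of -0.21 (-0.39 to -0.14), lowest with scaling to the FPKM total and highest without control liver 3, 6 lower and 1 higher at an unadjusted p below 0.05, and a summed level of 1008 to 1307 FPKM in control and 978 to 1167 FPKM in lipophagy livers. Ly6c2, a monocyte marker, was lowest at -0.45, and Vsig4, a marker of resident Kupffer cells, was highest at 0.40. The other higher markers were Clec4f at 0.17, Marco at 0.13 and Adgre1 at 0.05, while Cd5l was at -0.09. The list thus joins markers that differed in direction. All 10 tested bile duct markers were lower, with a median of -0.42 (-0.73 to -0.31), 1 of them at an unadjusted p below 0.05, and a summed level of 145 to 257 FPKM in control and 98.1 to 206 FPKM in lipophagy livers. Spp1 was lowest in this list at -0.71 and Sox9 closest to 0 at -0.06. Spp1 alone made up most of the sum, with 131 to 236 FPKM in control and 87.4 to 187 FPKM in lipophagy livers, and it stands in the activated stellate cell list too, where it is the largest part of the sum. None of the 10 was without overlap. The mean deviation of the list on the log2 scale was -0.12, 0.35 and 0.36 in control livers and -0.39, 0.19 and -0.40 in lipophagy livers, so control liver 1 and lipophagy liver 2 each stood apart from their groups. Endothelial markers had a median of 0.07 over 19 genes (-0.05 to 0.18), which was -0.05 with scaling to the FPKM total, -0.03 without lipophagy liver 1 and 0.18 without lipophagy liver 2, so no direction was read from it. At an unadjusted p below 0.05, 0 of them were lower and 1 was higher. Their summed level was 62.4 to 76.9 FPKM in control and 68.5 to 99.97 FPKM in lipophagy livers, with Pecam1 lowest at -0.11 and Clec4g highest at 0.43.

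Only 3 platelet markers were tested, with a median of -0.08 (-0.16 without control liver 3 to 0.06 without control liver 1), Pf4 lowest at -0.15 and Clec1b highest at 0.09, and a summed level of 15.8 to 20.1 FPKM in control and 14.6 to 20.2 FPKM in lipophagy livers. The 8 tested lymphocyte markers had a median of -0.04 (-0.12 to 0.05), which was 0.05 with quantile normalization and -0.11 without control liver 3, with 2 lower at an unadjusted p below 0.05, Ptprc lowest at -0.28 and Gzma highest at 0.12. Their summed level was 11.7 to 16.7 FPKM in control and 11.4 to 12.0 FPKM in lipophagy livers. The 3 tested neutrophil markers had a median of -0.37 (-0.63 to -0.097), which was -0.097 with no filter, -0.63 without control liver 1 and -0.24 without control liver 2, from S100a9 at -0.60 to Csf3r at -0.28, with 2 lower at an unadjusted p below 0.05 and a summed level of 19.2 to 33.4 FPKM in control and 16.9 to 20.03 FPKM in lipophagy livers. Of 18 hepatocyte markers, 15 were higher, with a median of 0.26 (0.08 to 0.27), and 7 were higher at an unadjusted p below 0.05. G6pc, the glucose-6-phosphatase gene, was highest at 1.29, and Trf, transferrin, lowest at -0.12. Their summed level was 84427 to 94170 FPKM in control and 100501 to 125295 FPKM in lipophagy livers, without overlap. The FPKM total of all genes was without overlap too, at 622696 to 681138 in control and 709993 to 782392 in lipophagy livers. The sum was not set against that total. Alb was the largest part of the sum, with 35470 to 39159 FPKM in control and 45009 to 64089 FPKM in lipophagy livers.

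The genes whose deviations over the 6 livers were most like those of each tested member were named as a description. The mean absolute difference of log2(FPKM + 1) deviations was 0.027 for Ptrf with Tgfb1, 0.015 for Itga8 and 0.025 for Mvp with Pdgfb, and 0.061 for Mug-ps1 and 0.070 for Marcksl1 with Pdgfa. Pdgfrb was nearest to Pde1b at 0.015 and Zmat3 at 0.029, and Pdgfra to Hgf at 0.023 and Add3 at 0.027. Tgfbr1 was nearest to Mtmr6 at 0.0090 and Gna13 at 0.013, and Tgfbr2 to Caskin2 at 0.014 and Usp25 at 0.018. Among 11493 genes a near profile over 6 livers is easily found, so these names carry no test. Hgf, the gene nearest to Pdgfra, is one of the stellate cell markers, and it was at 1.09 FPKM in control and 0.803 FPKM in lipophagy livers.

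**Figure D5:**
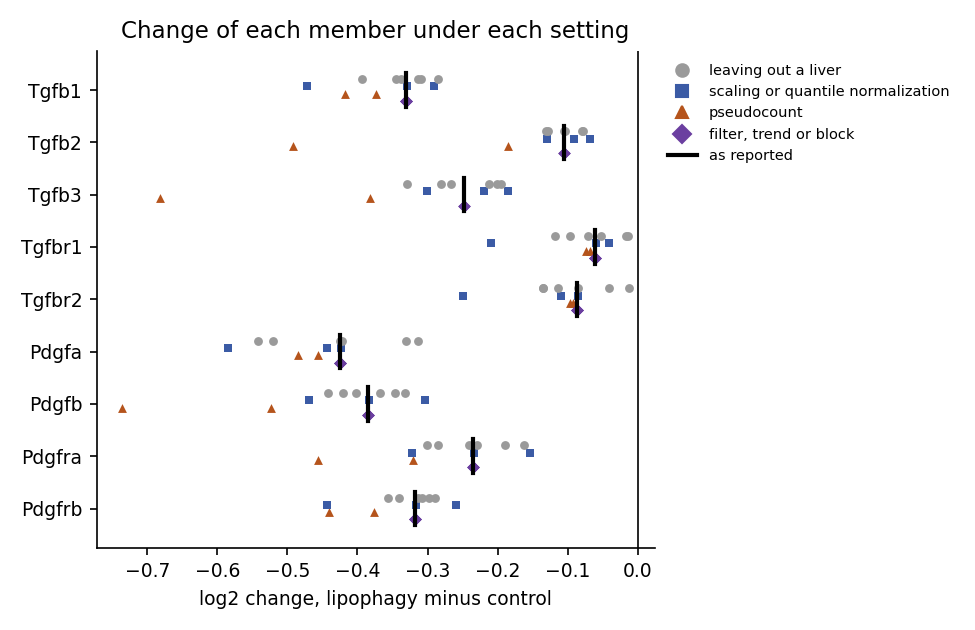
Log2 change, lipophagy minus control (x axis), of each of the 9 genes under each setting tried, with the value as reported (black bar). All points lie below 0, the pseudocount moves the genes of low level most, and Tgfbr1 and Tgfbr2 come nearest to 0 when 1 liver is left out.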

How the data were processed

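Liver RNA of 3 control and 3 lipophagy mice was sequenced by the study from TruSeq stranded mRNA libraries as 100 bp paired-end reads. The authors deposited FPKM values per gene symbol and liver, already scaled to transcript length and mapped fragments. The submitters' processing notes name TopHat2 2.0.13, Bowtie2 2.2.3, SAMtools 0.1.19, Cufflinks 2.2.1 and mm10, without roles. The annotation and the use of strand in counting are not given in the sources used here.

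Groups and replicate numbers came from the sample titles. The members and lists were chosen with earlier results of these data known. From the values log2(FPKM + 1) was computed, and limma 3.58.1 (R 4.3.3, intensity trend, no covariate, two-sided) was fitted to the 11493 genes whose mean reached 0.5 FPKM, with p-values adjusted by Benjamini-Hochberg over the whole table and a threshold of 0.05. Fold changes on this scale understate those of low genes. The p-values measure the spread between livers. Genes under the filter were read from the fit with no filter. Ratios were compared with an exact permutation test. In each list the genes with the lowest and the highest change were named, and for each tested member the 2 genes with the nearest profile. For Tgfb1 only 1 nearest gene is given, and the other is not reported here. Of 316 list entries, 2 were not found in the table, Trbc2 and Ly6g, and 2 were matched through a synonym, as Trf and Ctgf.

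Depth was estimated from the steps of 1 fragment in genes with 1 annotated transcript, with 175 bases taken off the length. Between 73.9% and 80.4% of the low values then lay within 0.1 of a whole number, so fragment numbers are approximate and cover counting error only. Positions and lengths came from GENCODE (GRCm38, the same assembly as mm10). Alternatives were other pseudocounts, filters, scalings, no trend, a replicate block and each liver left out. The fit was tested on simulated data before use. Other steps used Python 3.11.15 with scipy 1.17.1, numpy 2.4.6, pandas 2.3.3 and matplotlib 3.10.9.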

Additional observations from a re-analysis of the deposited data

How the results depend on the processing

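In each of the 129 alternative fits of single genes, the gene kept its direction and stayed above an adjusted p of 0.05 (limma). The filter of 1 FPKM removed Tgfb2, Tgfb3, Pdgfb and Pdgfra, and for Tgfb2 and Tgfb3 the fit with no filter was the reported one. The lowest adjusted p of Tgfb1 over the alternatives was 0.0512 and the highest 0.354, and for Pdgfb they were 0.0528 and 0.336. The lowest for both came from scaling to the same FPKM total, an alternative chosen after seeing the data. With a pseudocount of 0.1 the log2 change was -0.74 for Pdgfb, -0.68 for Tgfb3, -0.49 for Tgfb2 and -0.46 for Pdgfra. Leaving out 1 liver gave -0.12 to -0.01 for Tgfbr1 and -0.14 to -0.01 for Tgfbr2, a range wider than the value itself. The number of genes called over the whole table was 3, and 1 with no filter, 104 with scaling to the same FPKM total and 1 (without control liver 3) to 11 (without lipophagy liver 3) when 1 liver was left out. With the replicate number as a block 43 genes were called and 0 of the 9 genes. Same-numbered livers had correlations of 0.25, 0.23 and -0.06 in their deviations from the group means, and control liver 3 correlated best with lipophagy liver 2, so the numbers were not taken to pair the livers. With quantile normalization 4 of the 9 genes, all of them tested, did not overlap, against 10.3% of all tested symbols that were lower without overlap. The log2 change was then -0.15 for Pdgfra and -0.07 for Tgfb2. Of the 8 differences of ratios, those of Tgfb1 to Tgfbr1, Tgfb1 to Tgfbr2 and Pdgfa to Pdgfra kept their sign under each alternative, and the smaller ones did not. With a pseudocount of 0.1 they were -0.25 for Pdgfb to Pdgfa, 0.015 for Pdgfrb to Pdgfra and -0.26 for Tgfb3 to Tgfb1, with -0.029 for Pdgfa to Pdgfra and -0.30 for Pdgfb to Pdgfrb, and with 0.5 they were -0.066 for Pdgfb to Pdgfa and -0.0076 for Tgfb3 to Tgfb1. With 1 liver left out, Pdgfb to Pdgfa ranged from -0.11 to 0.21, Tgfbr2 to Tgfbr1 from -0.083 to 0.033 and Pdgfb to Pdgfrb from -0.11 to 0.024. The cause was not tested. Of the list medians, 203 of 240 moved by less than the spread between livers. Depth limits Tgfb2 and Tgfb3 most.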
